A study of Drosophila melanogaster with 2 samples.

Results

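The peaks described here are the 629 rows on the X chromosome among the 4175 peaks of a ChIP-seq list for the immune transcription factor Dif in Drosophila melanogaster. They were chosen by chromosome alone, and the reference for them is the 3546 autosomal peaks (2L, 2R, 3L, 3R and 4) of the same list. The chromatin came from whole larvae of the third instar in their wandering phase, males and females pooled, of a transgenic line that stably expresses Dif with GFP at its C terminus. GFP was the target of the precipitating antibody, and there is 1 group of 2 biological replicates, which carry the numbers 3 and 4. The size range stated for the sonicated chromatin is 200 to 275 in replicate 3 and ends at 300 in replicate 4, with no unit. The group has no other genotype, treatment or stage beside it, so X is compared with the autosomes within it. Sites of different tissues cannot be told apart in whole larvae. The labels do not give the insertion site of the transgene, and the libraries of the control experiment that the labels name were not used here. The list is the authors' set of peaks below a cut on the irreproducible discovery rate (IDR), which scores whether replicates place a peak at a similar rank. By signal rank, it held the same number of X peaks as the authors' pooled list of 30000 regions in every bin down to rank 4000. Single peaks did not need a match in each replicate: 540 of the 629 X peaks had a summit within 100 bp in both. Each peak has a signal, a value of the authors on an unstated scale, and X is set against the autosomes within a list. Where a peak is matched between replicates, its signals in both are given, without a known common scale. No read counts are in the files used, so depth is unknown and the intervals cover counting error only.

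Dif is an NF-κB protein that enters the nucleus when the Toll receptor is activated and that drives genes of the immune response, among them antimicrobial peptides. The X chromosome of flies is present once in males and as a pair in females. Males compensate through the MSL complex, which carries the noncoding RNAs roX1 and roX2 and the acetyltransferase mof and raises transcription of X genes. GAGA factor and CLAMP, a protein that helps to recruit the MSL complex, both bind runs of alternating G and A. In pools of both sexes X is thus present in fewer copies than the autosomes, and copy number and a property of the chromosome cannot be told apart in the comparisons of density below.

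Summit sequences of selected X peaks show a motif that was more frequent at X peaks, and 2 strong peaks without it. Each window is 121 bases long, centred on the summit, and printed 5′ to 3′ on the plus strand of the Release 6 assembly (dm6). Capitals mark GAGAGAG or its reverse complement CTCTCTC, called the GAGA motif below.
Unc-76 intron: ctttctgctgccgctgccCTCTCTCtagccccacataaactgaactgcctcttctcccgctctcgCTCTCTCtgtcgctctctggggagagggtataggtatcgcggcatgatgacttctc
sd promoter: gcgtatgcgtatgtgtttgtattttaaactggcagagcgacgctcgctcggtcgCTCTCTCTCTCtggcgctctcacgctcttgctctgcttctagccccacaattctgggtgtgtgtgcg
CHES-1-like promoter: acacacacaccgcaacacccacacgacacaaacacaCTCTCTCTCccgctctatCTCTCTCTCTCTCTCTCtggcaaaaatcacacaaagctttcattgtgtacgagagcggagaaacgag
CHES-1-like intron: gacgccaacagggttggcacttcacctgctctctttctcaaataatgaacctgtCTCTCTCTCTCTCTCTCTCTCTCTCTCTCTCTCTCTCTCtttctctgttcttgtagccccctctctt
sgg promoter: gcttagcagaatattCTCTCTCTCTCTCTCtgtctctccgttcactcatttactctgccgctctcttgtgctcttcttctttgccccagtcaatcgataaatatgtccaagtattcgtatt
brk promoter: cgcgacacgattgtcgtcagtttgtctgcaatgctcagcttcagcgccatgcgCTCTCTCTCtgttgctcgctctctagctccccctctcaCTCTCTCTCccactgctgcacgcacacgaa
br promoter: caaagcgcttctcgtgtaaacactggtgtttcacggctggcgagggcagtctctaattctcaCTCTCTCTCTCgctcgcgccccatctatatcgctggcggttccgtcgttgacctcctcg
roX1 exon: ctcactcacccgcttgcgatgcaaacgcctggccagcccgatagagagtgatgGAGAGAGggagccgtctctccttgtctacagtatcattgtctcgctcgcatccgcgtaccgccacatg
CG10555 promoter: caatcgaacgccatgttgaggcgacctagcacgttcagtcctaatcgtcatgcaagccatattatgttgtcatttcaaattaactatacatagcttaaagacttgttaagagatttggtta
ben promoter: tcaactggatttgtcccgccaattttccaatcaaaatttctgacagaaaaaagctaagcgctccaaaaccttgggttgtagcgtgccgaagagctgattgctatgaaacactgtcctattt
The windows are chrX:2083782-2083902 for Unc-76, chrX:15811801-15811921 for sd, chrX:7696765-7696885 for the CHES-1-like promoter and chrX:7690844-7690964 for the CHES-1-like intron. Those of sgg, brk and br are chrX:2642603-2642723, chrX:7307644-7307764 and chrX:1610107-1610227. The roX1 window is chrX:3861283-3861403, that of CG10555 is chrX:8398660-8398780 and that of ben is chrX:13995967-13996087. Windows that overlap an annotated untranslated region (UTR) were left out. The first 4 lines include 3 of the 4 strongest X peaks and the longest run of alternating G and A found within 60 bp of an X summit, 41 bases in an intron of CHES-1-like. The sgg, brk and br lines stand for genes of the lists below, and the roX1 line for the dosage compensation RNA. CG10555 and ben hold no capitals although their signals were 862 and 417.

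IDR peaks were less dense on X than on the autosome arms, at 26.7 against 32.1 per Mb. The ratio of X to autosomes was 0.831 (95% interval 0.763 to 0.905, exact conditional binomial p = 1.48e-05). Each of the long autosome arms held more peaks per Mb than X, with ratios of 0.837 for X over 2L, 0.783 over 2R, 0.857 over 3L and 0.821 over 3R, and exact adjusted p between 1.52e-05 and 0.00317. Chromosome 4, which is small and largely heterochromatic, was the exception. X had 3.00 times its density (interval 1.71 to 5.84, exact adjusted p = 2.62e-05), but 4 held only 12 peaks. Peaks within 500 bp of a transcription start site (TSS) were less dense on X (ratio 0.772, exact p = 4.66e-06). Peaks farther from a TSS had a ratio of 0.919 and did not pass (exact p = 0.204), and the difference between these ratios was not tested. Peaks are not independent replicates, so every p given here describes these lists.

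Gene density was lower on X as well, with 93.3 protein-coding genes per Mb against 106.5 on the autosomes. Set against genes in place of length, the difference in peak number did not pass, with 28.6 IDR peaks per 100 protein-coding genes on X and 30.2 on the autosomes (ratio 0.949, interval 0.870 to 1.03, exact p = 0.234). The ratio per gene was 0.970 with replicate 3 alone (exact p = 0.497) and passed with replicate 4 alone at 0.783 (exact p = 6.61e-08). This base was added after the data were seen. The share of genes with a promoter peak was lower on X. Of 2196 protein-coding X genes, 296 (13.5%, exact interval 12.1% to 15.0%) had a TSS with an IDR summit no more than 500 bp away, against 1831 of 11749 autosomal genes (15.6%, interval 14.9% to 16.3%). The odds ratio was 0.844 (interval 0.737 to 0.964, Fisher's exact p = 0.0117). Over all arms the share was 15.3%. By arm it was 13.5% on X, 14.4% on 2L, 16.2% on 2R, 15.4% on 3L, 16.3% on 3R and 10% on 4, and the interval of X overlaps those of 2L, 2R, 3L and 4. The plot of peak density and gene shares by arm gives both measures.

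**Figure D1:**
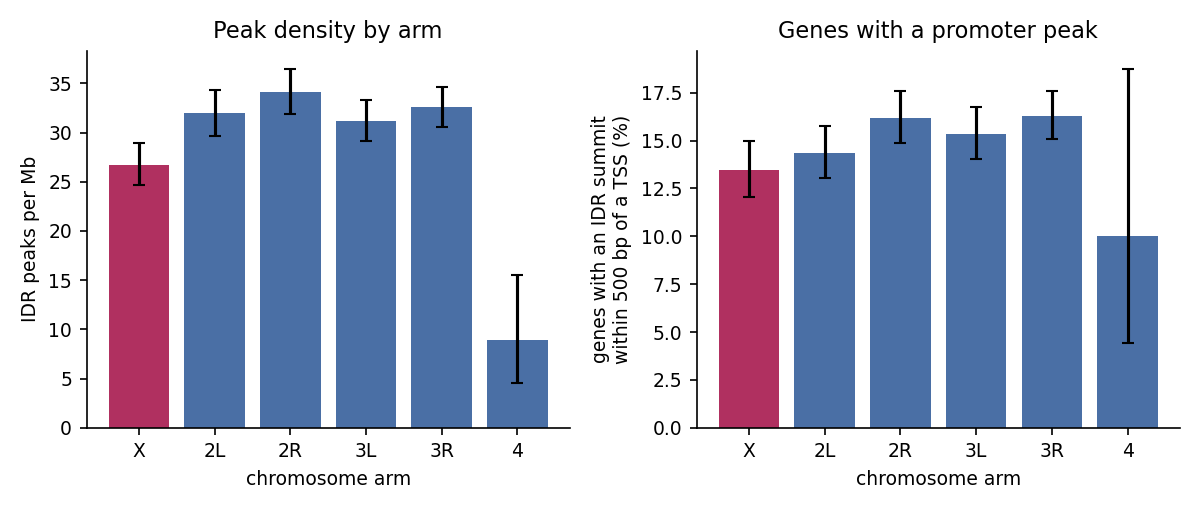
The left panel gives IDR peaks per Mb and the right panel the share of protein-coding genes with an IDR summit within 500 bp of a TSS, for X and each autosome arm. Bars start at 0 and error bars are exact 95% intervals for counting error. X stands below the 4 long autosome arms in both panels, at 26.7 per Mb and 13.5%.

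Peaks were spread unevenly along X. The 23 full bins of 1 Mb held between 2 and 50 IDR peaks, with a median of 29. The first 20 Mb held 612 of the 629 peaks, or 30.6 per Mb, and the last 3.54 Mb, towards the centromere, held 17, or 4.80 per Mb. Genes thinned out too, with 100.05 per Mb in the first 20 Mb and 55.0 in the rest. The widest gap between neighbouring summits was 1075751 bp, in that last stretch, against a median of 10050 bp. The next widest, 586725 bp, lay in the arm between the summits at 14238287 and 14825012, where 1 bin held 11 peaks beside 88 genes. The densest bin, with 50 peaks and only 55 genes, spanned 3 to 4 Mb and contains Tlk, a Tousled-like kinase that acts in chromatin assembly, and Mnt, the antagonist of Myc. Tlk spanned 17 IDR summits with signals from 86.5 to 586, and 10 of them held the GAGA motif. Mnt spanned 13, and CHES-1-like, a forkhead transcription factor, spanned 11 within 27.0 kb. Mur2B spanned 13 summits over a stretch that also holds br, and br itself spanned 9. These genes were named after their counts were seen, and 17 X genes spanned 5 or more summits.

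The share of regions on X differed between the replicates and along the ranks. Among the 4175 strongest regions of replicate 3, X held 641 (15.4%, exact interval 14.3% to 16.5%). Among those of replicate 4 it held 533 (12.8%, interval 11.8% to 13.8%). The density ratio of X to autosomes was thus 0.850 with replicate 3 alone and 0.686 with replicate 4 alone, and both passed (exact p = 0.000132 and 2.00e-17). Among the 100 strongest regions X held 10% in replicate 3 (interval 4.90% to 17.6%), 4% in replicate 4 (1.10% to 9.93%) and 11% in the IDR list (5.62% to 18.8%). Its share of the arm length was 17.6%, and of these intervals only that of replicate 4 lies well below it. In replicate 3 the X share lay between 13.7% and 16.5% from rank 101 to 8000 and between 10.8% and 11.0% beyond. Replicate 4 had no such step, with 11.3% at ranks 101 to 500 and between 12.5% and 13.8% at all later ranks. The plot of X share by rank shows the crossing of the replicates after rank 8000.

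**Figure D2:**
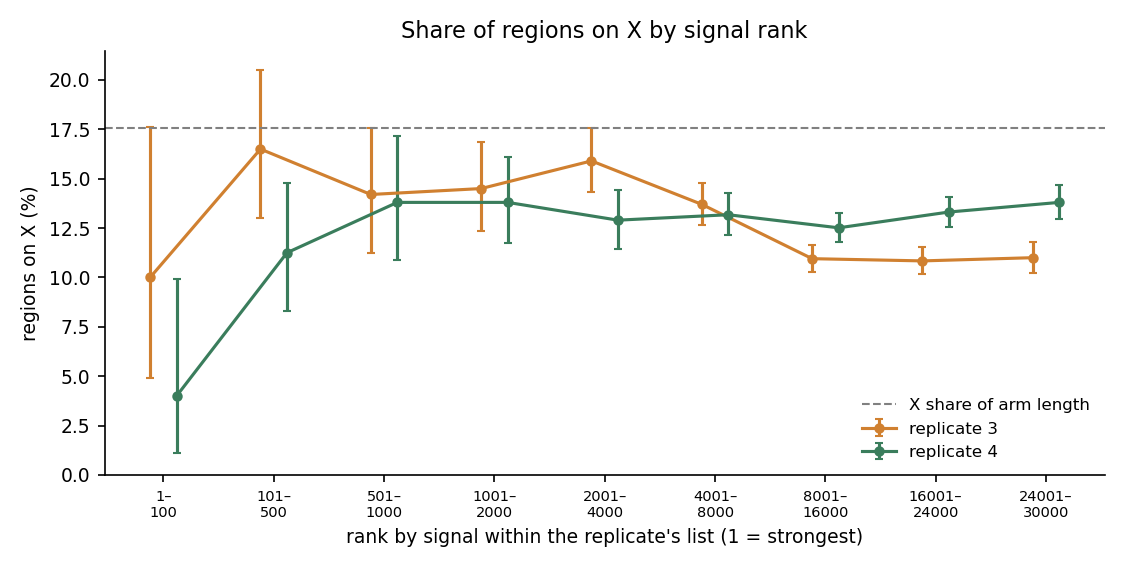
The share of regions on X (vertical axis, %) is plotted by rank of signal within the relaxed list of each replicate, from the strongest to the weakest of 30000 regions. Bars are exact 95% intervals and the dashed line is the share of X in the arm length, 17.6%. Replicate 3 lies at 16.5% for ranks 101 to 500 and at 11.0% for the last bin, and replicate 4 at 4% for the first bin and 13.8% for the last.

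Among peaks of the IDR list, no difference in signal between X and the autosomes passed the test. The lowest signal was 84.0 on X and 83.9 on the autosomes, and weaker regions are not in this list. The comparison thus covers peaks above a common cut and cannot show whether X sites in general were weaker. The median signal was 129.7 on X and 135.0 on the autosomes, and 90% of values lay below 328 on X and below 332 on the autosomes. Above the median of the whole list lay 47.2% of X peaks and 50.5% of autosomal peaks (odds ratio 0.878, interval 0.738 to 1.04, Fisher's exact p = 0.141). The highest X signal was 863 and the highest autosomal signal 4992. In the 3 relaxed lists, of 30000 regions each, the median on X was 1.05 times that on autosomes in the pooled list, 1.06 times in replicate 3 and 0.978 times in replicate 4. These lists also end at like lowest signals, with 25.5 on X and 25.5 on the autosomes in the pooled list. The most common width, 244 bp, was that of 70.0% of X peaks and 69.9% of autosomal ones. A neighbouring summit within 2000 bp was found for 46.6% of X peaks and 43.3% of autosomal peaks (Fisher's exact p = 0.138).

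The share of X peaks found in each replicate did not differ detectably from that of autosomal peaks. A summit within 100 bp was present in replicate 3 for 98.4% of X and 97.9% of autosomal peaks, in replicate 4 for 87.4% and 87.2%, and in both for 85.9% and 85.3%. The odds ratio for both replicates was 1.05 (interval 0.817 to 1.35, Fisher's exact p = 0.760). Across the 540 X peaks found in both, signal in the replicates gave a Spearman correlation of 0.462 and, on the log2 scale, a Pearson r of 0.516. The 3025 autosomal peaks gave 0.487 and 0.564. These correlations run over peaks of the same 2 libraries and have no p. The median log2 ratio of replicate 4 to replicate 3 signal was -1.66 on X and -1.45 on the autosomes, a difference of -0.20. Its quartiles were -2.21 and -1.09 on X and -2.05 and -0.893 on the autosomes. They overlap widely, and the difference was not tested.

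The strongest X peak lay in an intron of Unc-76, which encodes a kinesin-binding protein of axonal transport, at chrX:2083739-2083945. Its signal was 863 in the IDR list, 708 in replicate 3 and 148 in replicate 4, and it ranked 41 and 147 there. Next came CG10555, with the summit 220 bp upstream of a TSS and a signal of 862. It ranked 69 in replicate 3 and 23 in replicate 4, which made it the highest X peak of replicate 4. An internal promoter of sd, the TEAD factor through which the Hippo pathway acts, had a signal of 847 and ranks of 34 and 175. A promoter of CHES-1-like followed with a signal of 829 and ranks of 47 and 71. All 4 of these peaks thus ranked 175 or better in each replicate.

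Further strong peaks lay at promoters of Trf2, a TBP-related factor of the basal transcription machinery (signal 678), CG1806 (664), Dus2, a tRNA dihydrouridine synthase (644), CG4004 (642), CG9915 (562), Tcs4 (529), CG4678 (497), MFS10 (488) and CG12730 (465). A peak in an intron of Raf, a kinase of the MAP kinase cascade, had a signal of 662, ranked 48 in replicate 4 and had the noncoding gene CR34052 as its nearest TSS. Peaks inside Tlk had signals of 586 and 490.0, and 1 near CycD, a cyclin, had 542 and lay 506 bp upstream of the TSS. sesB, a mitochondrial ADP/ATP translocase, had 493 and Mct1, a monocarboxylate transporter, had 461. Intergenic peaks were led by 1 near the noncoding gene CR45609 with 545, coding sequence by bif with 384, and 5′ UTRs by a peak at lawc and Trf2 with 333. Of the 25 strongest X peaks 17 lay within 500 bp of a TSS and 15 held the GAGA motif, and together they held 13.9% of the summed signal of X.

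The replicates ranked some strong X peaks very differently. Both of the strongest 3′ UTR peaks were far higher in the order of replicate 3. The peak in the 3′ UTR of APC7, a subunit of the anaphase-promoting complex, 723 bp from a TSS of pigs, ranked 40 in replicate 3 and 1879 in replicate 4, and that in RSG7, a regulator of G protein signalling, ranked 52 and 1109. A peak 489 bp upstream of a TSS of orion, which encodes a chemokine-like signal for phagocytes, ranked 368 in replicate 3 and 18979 in replicate 4. In the other direction, CG11590 stood at rank 749 of replicate 3 and rank 267 of replicate 4. Of the 100 strongest X peaks, 99 had a summit in both replicates. The plot of replicate 3 against replicate 4 signal shows the spread.

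**Figure D3:**
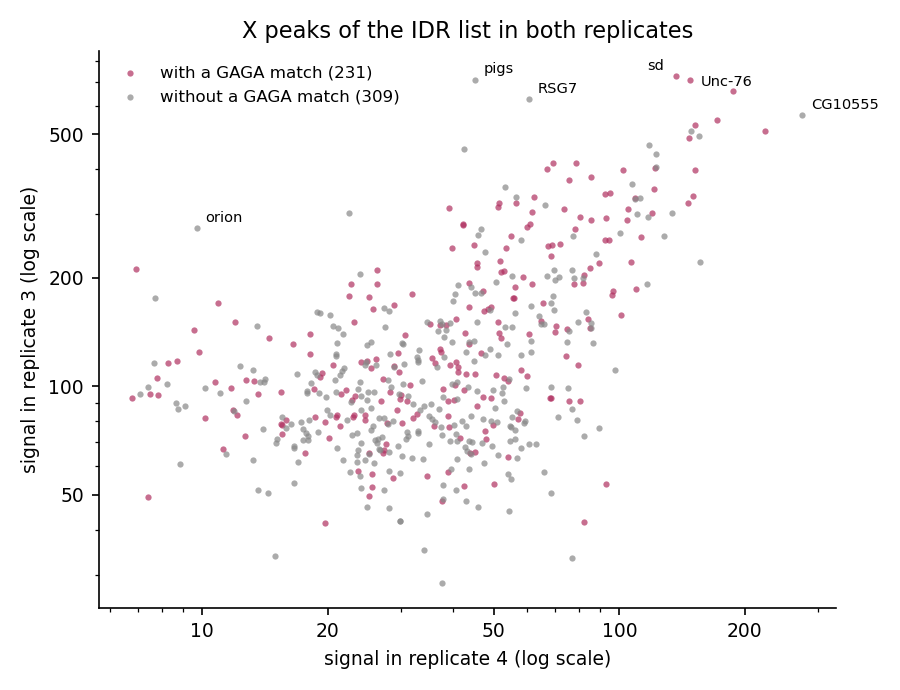
Each point is 1 of the 540 X peaks of the IDR list with a summit in both replicates, with signal in replicate 4 (horizontal) and in replicate 3 (vertical), both on log scales. Dark red points hold the GAGA motif (231) and grey points do not (309). pigs and RSG7 stand near the top, at 710 and 627 in replicate 3 and 45.2 and 60.9 in replicate 4. orion, at 275 in replicate 3 and 9.73 in replicate 4, lies lower and to the left. CG10555, with 275 in replicate 4, is farthest to the right.

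By position, X peaks were more often in introns and 5′ UTRs and less often between genes than autosomal peaks. Within 500 bp of a TSS lay 349 X peaks (55.5%) and 59.7% of autosomal peaks, which did not pass (Fisher's exact adjusted p = 0.0836 over 7 classes). This lower share did pass with replicate 3 alone (odds ratio 0.777, Fisher's exact adjusted p = 0.0133) and with a TSS window of 200 bp (0.789, 0.0251), and with replicate 4 alone the odds ratio was 0.996. Beyond that window, introns held 31.3% of X and 26.5% of autosomal peaks (odds ratio 1.27, interval 1.05 to 1.53), 5′ UTRs held 3.34% and 1.64% (2.08, 1.19 to 3.50), and intergenic sequence held 6.36% and 9.50% (0.647, 0.449 to 0.911). Each of these 3 had a Fisher's exact adjusted p of 0.0307. None of the 3 passed with a TSS window of 1000 bp or in the 2087 strongest IDR peaks. The intron and 5′ UTR calls were lost with replicate 4 alone (Fisher's exact adjusted p = 0.651 and 0.771), and the intergenic call with a TSS window of 200 bp (0.163). Coding sequence held 7 X peaks, or 1.11%, against 0.592% of autosomal peaks, and 3′ UTRs held 11, or 1.75%, against 0.987%. The 3′ UTR share did not pass (Fisher's exact adjusted p = 0.137), but did with replicate 4 alone (odds ratio 3.62, 0.00373). The nearest TSS was at a median of 350.0 bp from the summit on X and 245.5 bp on the autosomes.

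The GAGA motif was more frequent at X summits than at autosomal summits. Within 100 bp of the summit it was found in 270 X peaks (42.9%, exact interval 39.0% to 46.9%) and in 1175 autosomal peaks (33.1%, interval 31.6% to 34.7%). The odds ratio was 1.52 (interval 1.27 to 1.81, Fisher's exact adjusted p = 1.22e-05 over 9 motifs), and it passed under every alternative run. The longer repeat GAGAGAGAG, whose matches all overlap those of the GAGA motif, gave 24.2% on X and 14.5% on autosomes (odds ratio 1.88, Fisher's exact adjusted p = 5.31e-08). By arm, the GAGA motif was found at 42.9% of summits on X, 31.6% on 2L, 33.0% on 2R, 33.1% on 3L, 34.7% on 3R and 8.33% on 4. Runs of at least 20 alternating G and A were found at 18 X summits (2.86%) and at 1.80% of autosomal ones, and the longest were 41 and 39 bases.

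X as a whole is richer in these repeats. Of all tiles of 201 bp, 2.95% on X and 2.34% on the autosomes held the GAGA motif, and around protein-coding TSSs the shares were 5.44% and 4.54%. In windows 1000 bp from the summits they were 4.82% and 3.27%. The odds of a match at the summit alone against the flank alone did not differ detectably between X and autosomes, with a ratio of 1.06 (interval 0.588 to 2.02, Fisher's exact adjusted p = 1). The summit share was 14.5 times the tile share on X and 14.2 times on the autosomes. A CACACACAC repeat was found at 15.3% of X summits and 9.98% of autosomal summits (odds ratio 1.62, Fisher's exact adjusted p = 0.000470), in 3.99% and 2.24% of tiles, and its ratio of summit to flank odds was 0.746 (interval 0.454 to 1.25). Its call was lost within 50 bp of the summit and among peaks at a TSS (Fisher's exact adjusted p = 0.161 and 0.142). Median GC content at the summits was 49.8% on X and 49.8% on the autosomes. The plot of motif shares by kind of window sets these values side by side.

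**Figure D4:**
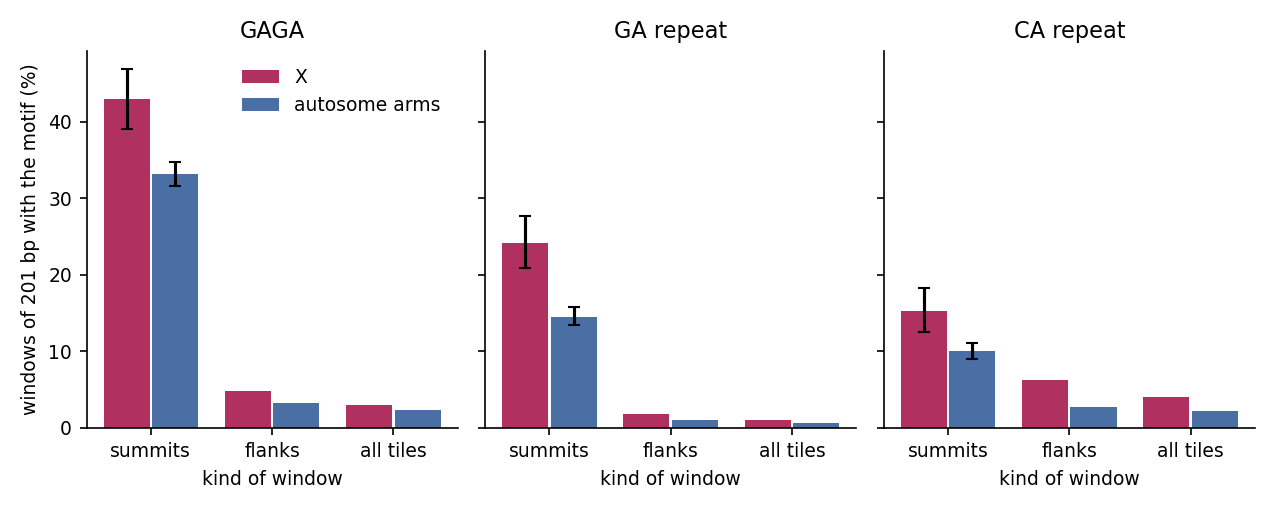
Bars give the share of 201-bp windows with the GAGA motif, the longer GA repeat and the CA repeat (vertical axis, %) at IDR summits, in flanks 1000 bp away and in all tiles, for X and the autosome arms. Error bars on summits are exact 95% intervals. For GAGA the bars on X and autosomes are 42.9% and 33.1% at summits, 4.82% and 3.27% in flanks and 2.95% and 2.34% in tiles.

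Over the 270 X and 1175 autosomal peaks with a match inside the 100 bp window, which caps the distance, the nearest GAGA match lay at a median of 13 bp from the summit on X and 18 bp on the autosomes. X and autosomal peaks were each cut by signal into 4 bins of like size, so the signal cuts differ between the sets. From the strongest bin to the weakest, 60.1%, 43.3%, 34.4% and 33.8% of X peaks held the motif. On the autosomes the bins had 51.2%, 37.9%, 26.6% and 16.8%, and bins were not tested against each other. Among peaks at a TSS, 39.3% on X and 31.6% on autosomes held the motif (odds ratio 1.40, Fisher's exact adjusted p = 0.0251), and among all others 47.5% and 35.4% (1.65, adjusted p = 0.000814). In introns the shares were 48.2% and 37.6%, and in intergenic peaks 45.0% and 27.9%. The profile of GAGA matches around summits gives their position.

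**Figure D5:**
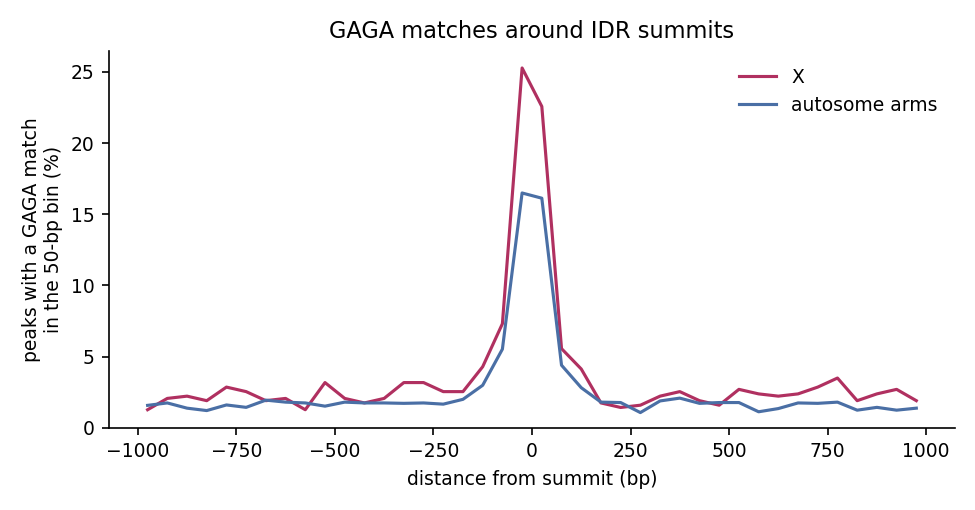
The share of IDR peaks with a GAGA match in a 50-bp bin (vertical axis, %) is plotted against distance from the summit (horizontal axis, bp) for X and the autosome arms. Both lines rise at the summit, X above the autosomes. Beyond about 200 bp both are low, and X still lies above the autosomes in most bins.

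The other motifs did not pass between X and autosomes. The E-box CAGCTG was found in 10.7% of X and 14.1% of autosomal summits (Fisher's exact adjusted p = 0.0511). A broad κB motif, a loose form of the sequence that NF-κB proteins bind, was found at 6 X summits (0.954%) and at 0.846% of autosomal summits (Fisher's exact adjusted p = 0.906), while 1.24% and 1.25% of tiles held it. The 6 X peaks lay at CrebB, pod1, CG3842, Shmt, unc-4 and in an intron of Hers, with signals between 100.8 and 191, and 3 of them also held the GAGA motif. None of the 25 strongest X peaks held the broad κB motif. No match says only that these letters are not in the window.

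Of 9 genes of dosage compensation and sex determination on X, 2 had a promoter peak. Here and below a gene counts when an IDR summit lies within 500 bp of a TSS, which holds for 13.5% of all protein-coding X genes. Sxl, the switch gene of sex determination, had a peak 221 bp upstream of a TSS with a signal of 98.9. It stood at rank 2756 of replicate 3 and had no summit of replicate 4 within 100 bp. sc, an achaete-scute gene that also serves as an X-counting element, had a signal of 355 and ranks of 450 and 451. roX1 had none at a TSS, but a peak lay within the gene, 718 bp downstream of a TSS, at chrX:3861221-3861464, with a signal of 100.6 and ranks of 2539 and 2332. roX2 and sisA had no IDR or pooled relaxed summit within 500 bp of a TSS and no IDR summit inside the gene. At the TSS of mof lay only a relaxed region with a signal of 30.2.

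Among 16 immune signalling genes, 6 had an IDR peak at a TSS. dome, the receptor of the JAK/STAT pathway, had the strongest with 498, at ranks 144 and 858, inside the gene 410 bp from its TSS. The cytokine upd3, a ligand of dome, had 143, but upd1, upd2 and the kinase hop had none. In the IMD pathway, which senses Gram-negative bacteria, the ubiquitin-conjugating enzyme ben had 417, the kinase Tak1 had 249 and the peptidoglycan receptor PGRP-LE had 129.8. The PGRP-LE peak lies between this gene and sd, within 500 bp of a TSS of both. Its summit is 27 bp upstream of a TSS of sd and 463 bp upstream of one of PGRP-LE. This peak was counted for both genes. Among genes that act upstream of Dif in the Toll pathway, the protease Hayan, which also acts in melanisation, had 214, at ranks 1868 and 419. The receptor PGRP-SA and the proteases psh and spirit had no IDR peak and pooled relaxed signals of 49.7, 35.0 and 49.6. In the pooled relaxed list 13 of the 16 had a region at a TSS, where 42.8% of all protein-coding X genes had one.

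Patterning and growth genes held the highest count, with 12 of 14. The number of TSSs in this list ran from 1 for brk to 11 for sgg, and a gene with more TSSs has more chances to count. sd was followed by sgg, the GSK3 kinase of Wnt signalling (502), brk, a repressor of Dpp targets (424), Mnt (396), sog, a secreted Dpp antagonist (262), Myc (206) and ct, a homeodomain factor (187). oc, btd, bi, arm and N had signals between 99.9 and 156, and run and dsh had none. brk ranked 222 in replicate 3 and 468 in replicate 4, and arm ranked 1964 and 8769. The ranks were 1129 and 5521 for ct and 2270 and 14729 for the stronger peak of N. oc and btd stood higher in replicate 4, with ranks of 2563 and 714 for oc and 2013 and 1136 for btd. In the ecdysone list 2 of 7 genes had a peak at a TSS, the nuclear receptor Hr4 (216) and br, an early ecdysone gene (126), while usp, phtm, Cyp18a1, dor and Sgs4 had none.

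Of 10 neuronal and adhesion genes 4 had a peak. Fas2, a cell adhesion molecule, had 276, dlg1, a scaffold of septate junctions and synapses, had 240, elav, a neuronal RNA-binding protein, had 201 and mys, an integrin subunit, had 86.7. For elav the ranks were 625 and 28646 in replicates 3 and 4. The mys peak stood at rank 3663 of replicate 3 and had no summit of replicate 4 within 100 bp. Of 12 fat body and metabolism genes 2 had one, the chaperone Hsc70-3 (381) and the lipid droplet protein Lsd-2 (158), and the yolk protein genes Yp1, Yp2 and Yp3 had none. Ribosomal protein genes had 4 of 13, with signals from 85.8 to 121, all below the X median. The 4 genes of adult ovary and eggshell, Cp36, Cp38, dec and otu, had none, also in the relaxed lists. Over all lists 32 of 83 genes (38.6%) had a peak, against 13.5% of all protein-coding X genes. The lists were picked for known roles but with earlier results of these data known, and no test was made of them. Their genes were not matched to other X genes in number of TSSs.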

How the data were processed

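The authors deposited peak lists on dm6 and on dm3 coordinates, per the file headers. They are relaxed lists of 30000 peaks and background regions for replicate 3, replicate 4 and both pooled, and an IDR list. Each region carries a signal, the authors' own value, and the deposited −log10 q-value, which was used only for a threshold of 0.01. The sources used here name no aligner, caller or scaling. No depth can be had from these files.

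From there, regions were placed by their summits in 1-based dm6 coordinates. Genes came from Ensembl release 115, without transposable elements, and sequence from the Release 6 assembly. On X, 5406 of 5421 annotated start codons (99.7%) read ATG there. Densities were compared by exact conditional binomial tests on arm lengths, and shares by Fisher's exact test, all two-sided. Benjamini-Hochberg adjustment was made over 5 arms, 7 position classes or 9 motifs, with a threshold of 0.05. Intervals are exact (Clopper-Pearson for shares) at the 95% level. Replicate summits were matched within 100 bp. Motifs were sought on both strands within 100 bp of a summit, in flanks 1000 bp away, in all tiles of 201 bp and at protein-coding TSSs. The motifs were GAGAGAG, GAGAGAGAG, CACACACAC, the E-boxes CAGCTG and CACGTG, DRE (TATCGATA), Motif 1 (GGTCACACT), Zelda (CAGGTAG) and a broad κB motif. Python 3.11.15, NumPy 2.4.6, SciPy 1.17.1 and matplotlib 3.10.9 were used, and the tests were tried on simulated data.

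Named genes are those at the 25 strongest X peaks, the strongest X peak of each position class, the 3 largest rank differences between replicates in each direction among the 100 strongest X peaks, and the members of 8 gene lists. A result that this rule names is not reported here. The peaks, the lists and the tests were chosen with earlier results of these data known. Alternatives were each replicate alone (its 4175 strongest regions), the stronger part of the IDR list, the pooled list with and without the q threshold, other windows, and peaks at or away from a TSS. Peaks per gene were added after the data were seen. No replicate block was used, since there is 1 group.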

Additional observations from a re-analysis of the deposited data

How the results depend on the processing

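Of the values compared with those above, 163 kept their direction and their side of the threshold, 13 lost a call, 5 gained one, 3 counts moved by more than 1.5 times and 27 changed direction. In every result that changed direction, neither value passed its test. The lower peak density on X per Mb passed in each list tried, at ratios from 0.641 to 0.850, except beyond 500 bp of a TSS (0.919, exact p = 0.204). The lists tried share regions or libraries with the IDR list, so they are not independent checks of any result here. Per gene, a base added after the data were seen, the lower density did not pass (0.949, exact p = 0.234). The odds ratio for genes with a peak lay between 0.749 and 0.860 and that for the GAGA motif between 1.40 and 1.65, and both passed throughout. Position was the least stable: 3 classes passed, and 3 with a TSS window of 200 bp, 4 with replicate 3 alone (the TSS class gained) and 2 with replicate 4 alone (3′ UTRs and intergenic), against 1 in the stronger part of the IDR list (3′ UTRs, odds ratio 3.70) and 0 with a TSS window of 1000 bp. With replicate 3 alone 1 motif, DRE, passed the test of summit against flank odds (0.193, Fisher's exact adjusted p = 0.00711), against 0 otherwise by Fisher's exact test, where 2 motifs had an unadjusted exact p under 0.05. The cause of these changes was not tested.

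Differences between X and autosomes that changed direction were, in percentage points, 0.121 for signal above the median with replicate 4 alone (-3.03 with replicate 3 alone), -1.46 for a neighbouring summit with replicate 4 alone (1.37 with replicate 3 alone) and -0.241 in the stronger part, and -0.280, -0.719 and -0.998 for a summit within 250 bp in replicate 3, replicate 4 and both. Odds ratios that did so were, for CACGTG, 1.02 and 1.03 (each replicate alone), 1.10 (stronger part), 1.32 (50 bp) and 1.10 (at a TSS). For DRE they were 1.12 (replicate 4 alone, against 0.554 with replicate 3 alone) and 1.21 (250 bp), and for Motif 1 1.03 (replicate 3 alone, against 0.837 with replicate 4 alone) and 1.06 (250 bp). For the broad κB motif they were 0.499 and 0.537 (each replicate alone), 0.312 (50 bp), 0.870 (250 bp) and 0.462 (away from a TSS). Ratios of summit to flank odds did so for GAGA at 0.922 (replicate 3 alone, against 1.23 with replicate 4 alone), 0.881 (stronger part) and 0.894 (at a TSS), and for the broad κB motif at 0.605 and 0.703 (each replicate alone), 0.329 (50 bp) and 0.455 (away from a TSS).

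These lists come from 2 libraries of 1 group, so no spread between animals or conditions can be had. Signal and q are values of the authors. The labels name a control experiment, which was not used here, and how it entered these values is not stated. Mappability was not examined, and this touches the thinly covered end of X and long GA or CA runs. X has fewer copies than autosomes in mixed-sex pools, and the labels do not give the share of males in each pool.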

Other observations

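Some X genes of the lists without an IDR peak had a region at a TSS in the pooled relaxed list just below it. The signal was 82.5 for Zw, which encodes glucose-6-phosphate dehydrogenase, 81.5 for usp, the partner of the ecdysone receptor, 78.8 for Nrg, a neuronal adhesion protein, 77.9 for the cytokine upd2 and 77.1 for RpL17, a ribosomal protein. The lowest signal of an X peak in the IDR list was 84.0. Their pooled ranks ran from 4287 to 4709.

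DRE, the motif TATCGATA of core promoters, was found at 1.43% of X summits and 1.66% of autosomal summits. Windows centred on protein-coding TSSs held it at 9.44% on X and 5.83% on autosomes, and all tiles at 0.706% and 0.534%. For Motif 1, another core promoter motif, the shares were 1.43% and 1.75% at summits and 4.34% and 4.44% at TSSs. At TSS windows the GAGA motif had 5.44% and 4.54%, against 42.9% and 33.1% at summits. Summits and TSSs are different positions, and these shares were not tested against each other.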
